A study of Mus musculus with 3 samples.

Results

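The comparison described here sets the fetal liver against the bone marrow of C57BL/6 mice, gene by gene. The fetal liver was taken at day 13.5 of gestation, and total RNA of each tissue was hybridised once to a 1-colour Agilent mouse array. The wording of the labels leaves unclear whether the age of 12 weeks given for the adult animals also covers the bone marrow donors, and neither the animals' sex nor how many were pooled is given in the sources used here. An adult liver array of 12-week mice completes the series of 3 arrays, and its levels stand beside the others where they help to read a gene. All genes with a name were taken: of 19747 named genes, 14695 could be compared between fetal liver and bone marrow. Each tissue was hybridised to a single array and nothing measures the spread between animals, so every fold describes this pair of RNA samples and carries no test.

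In the mouse embryo the liver takes over blood formation from the yolk sac and fills with red cell precursors, which grow among hepatoblasts, the common ancestors of hepatocytes and bile duct cells. Around birth, blood formation moves to the bone marrow, where neutrophils, monocytes, eosinophils and B lymphocytes are made beside red cells and platelets. The comparison therefore separates a blood-forming programme that both organs may share from the liver's own cells and from the white cells of adult marrow. In whole-tissue RNA, fewer cells of a type and less RNA per cell cannot be told apart.

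A gene's level is given as its processed signal divided by the 75th percentile of all gene signals on its array, so a level of 1 lies at that percentile. Levels of different genes come from different probes and are not set against each other. Folds of at least 4, which is 2 on the log2 scale, are counted as differences. Where a probe was not well above background in 1 tissue, the fold is a lower bound and is written "at least". Of the 14695 genes compared, 12939 were measured in both tissues and 1756 gave a bound, while 4852 further genes were not well above background in either tissue. The 75th percentile lay at a signal of 387 on the fetal liver array and 894 on the bone marrow array. Spots of the same probe differed by a pooled SD of 0.133 on the log2 scale on the fetal liver array and 0.098 on the bone marrow array. The scanner's own error of a log2 difference had a median of 0.205, far below the 4-fold limit, but it covers neither animals nor RNA preparation.

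The regulatory sequence ahead of a few genes that carry the comparison is shown first, with promoter motifs that are counted further below. In those counts the ends of the comparison differed in sites of the factors HNF1 and PU.1 but were close in those of C/EBP. Each line holds the 250 bases before the annotated start from the RefSeq table of build GRCm38.p6, written 5′ to 3′ on the strand of the gene, which is the plus strand for all of them, with the motif found in capitals. Albumin and alpha-fetoprotein are examples from the liver side. They carry the letters GTTAATNAT, a form of the site of the hepatocyte factor HNF1, starting 32 and 105 bases before the start. Myeloperoxidase and neutrophil elastase are examples of early neutrophil granule genes. They carry GAGGAAGT, a form of the site of the myeloid factor PU.1, starting 224 and 85 bases before the start. Lactoferrin and neutrophilic granule protein are examples of later granule genes and carry TTGNGCAA, a form of the C/EBP site. It starts 75 bases before the start of the former and 138 and 11 bases before that of the latter. The match at 138 lies on the opposite strand and so reads TTGCCCAA in the line shown. Most genes of these kinds lack the letters. The HNF1 letters stood in 11 of 140 promoters of the liver cell lists. Of 188 promoters of the mature white cell lists, 12 held the PU.1 and 15 the C/EBP letters.
Alb, chr5:90460620-90460869: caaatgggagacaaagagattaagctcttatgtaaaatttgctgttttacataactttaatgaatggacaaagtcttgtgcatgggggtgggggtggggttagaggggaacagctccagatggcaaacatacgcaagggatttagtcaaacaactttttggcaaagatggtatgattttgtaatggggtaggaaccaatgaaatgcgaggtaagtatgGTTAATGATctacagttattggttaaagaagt
Afp, chr5:90490464-90490713: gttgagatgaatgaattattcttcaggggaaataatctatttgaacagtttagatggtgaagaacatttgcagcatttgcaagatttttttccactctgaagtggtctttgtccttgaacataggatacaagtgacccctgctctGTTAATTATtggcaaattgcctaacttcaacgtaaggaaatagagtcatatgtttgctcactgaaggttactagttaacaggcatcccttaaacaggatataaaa
Mpo, chr11:87793534-87793783: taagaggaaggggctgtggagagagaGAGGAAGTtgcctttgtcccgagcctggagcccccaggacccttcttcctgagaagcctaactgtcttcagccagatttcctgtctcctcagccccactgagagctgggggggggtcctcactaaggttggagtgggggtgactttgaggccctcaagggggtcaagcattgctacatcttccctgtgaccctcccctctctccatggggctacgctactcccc
Elane, chr10:79886062-79886311: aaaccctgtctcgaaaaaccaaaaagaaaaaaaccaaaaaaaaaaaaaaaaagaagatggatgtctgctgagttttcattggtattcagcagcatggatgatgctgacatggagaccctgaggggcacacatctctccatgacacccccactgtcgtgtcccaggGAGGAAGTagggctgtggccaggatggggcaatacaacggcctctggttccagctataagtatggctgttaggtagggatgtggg
Ltf, chr9:111019042-111019291: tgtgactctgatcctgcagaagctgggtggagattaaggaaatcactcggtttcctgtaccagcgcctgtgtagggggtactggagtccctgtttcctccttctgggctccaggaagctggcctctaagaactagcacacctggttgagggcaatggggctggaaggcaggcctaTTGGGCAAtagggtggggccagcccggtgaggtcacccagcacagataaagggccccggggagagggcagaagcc
Ngp, chr9:110419558-110419807: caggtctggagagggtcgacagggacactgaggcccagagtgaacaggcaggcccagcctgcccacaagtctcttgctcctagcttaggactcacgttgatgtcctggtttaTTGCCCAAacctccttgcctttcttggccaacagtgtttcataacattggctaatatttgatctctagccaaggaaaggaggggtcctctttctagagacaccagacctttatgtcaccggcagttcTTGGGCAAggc

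Over all genes, 1365 were higher by 4-fold or more in fetal liver, which is 9.29% of those compared, and 1224 were at least 4-fold higher in bone marrow, which is 8.33%. Another 8098 genes, 55.1%, were measured on both arrays and lay within 2-fold of each other. Of the genes higher in fetal liver 482 were bounds, and of those higher in bone marrow 302 were bounds. Across the 12939 genes measured in both tissues, Pearson's r was 0.831 and Spearman's rho 0.830, as a description across genes, which are not independent replicates. The median log2 difference, fetal liver minus bone marrow, was 0.26. Scaling each array to its median in place of its 75th percentile moved the fetal liver share of the differing genes from 52.7% to 38.8%. Scaling to the arrays' spiked-in control RNA lowered the median difference of all genes by 2.36 on the log2 scale, which left 319 genes higher in fetal liver and 7712 higher in bone marrow. Whether both organs carry like amounts of a message therefore rests on the scaling. The order of the gene groups relative to the median of all genes was the same under the main setting and 8 alternatives. The shared blood lists lay within 0.30 below that median and the liver cell lists 1.12 to 2.65 above it. The mature white cell lists lay 3.48 to 4.35 below it. Median scaling, spike-in scaling and the percentile over detected probes shift all genes alike, so they could hardly turn this order. The deposited values, a further alternative, derive from the scanner's error, as described below.

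**Figure D1:**
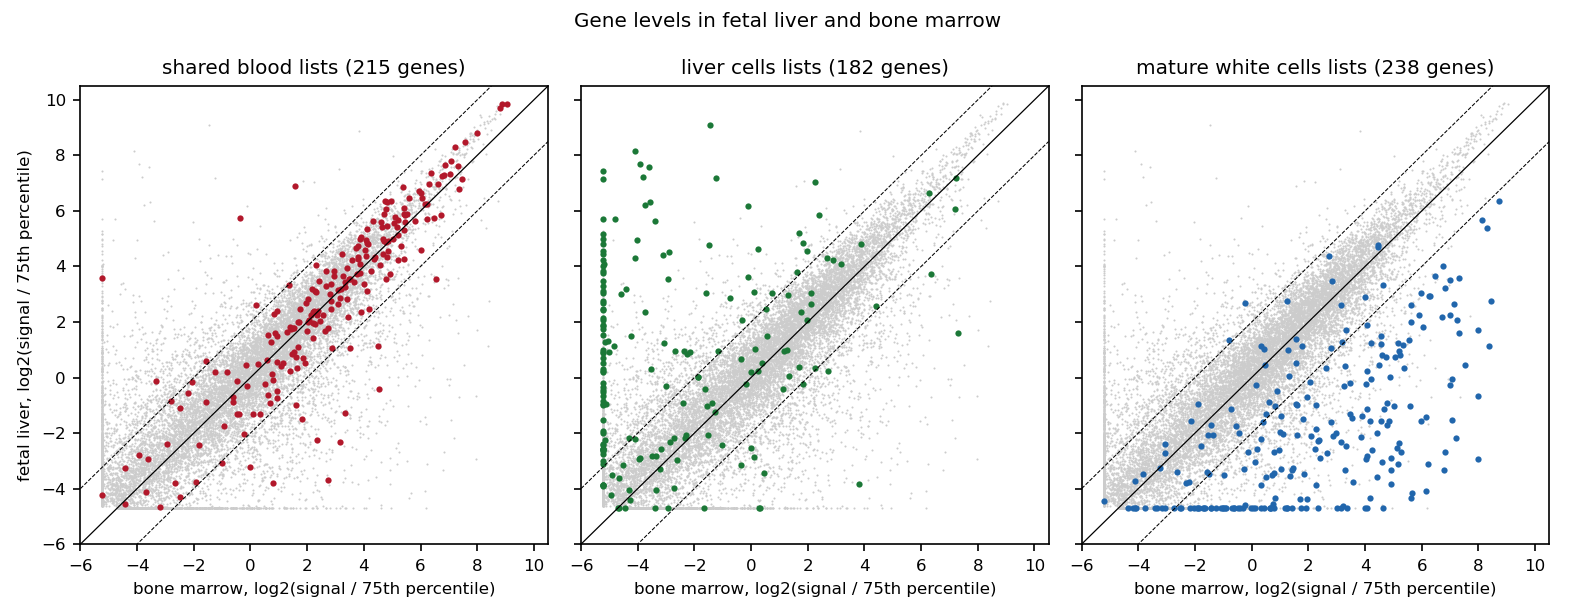
Levels of genes in bone marrow (x axis) and fetal liver (y axis), both as log2 of the signal over the array's 75th percentile; grey points are all 14695 genes compared, coloured points are the 215 genes of the shared blood lists, 182 of the liver cell lists and 238 of the mature white cell lists. The solid line marks equal levels, the dashed lines 4-fold; probes not well above background sit at the array's floor. The shared blood genes follow the line of equal levels, the liver genes lie mostly above it and the white cell genes mostly below it.

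To read these differences by cell type, 55 gene lists with 940 genes were set from textbook knowledge. Lists of blood formation common to both organs held 215 genes that could be compared, and 143 of them lay within 2-fold, with 6 at least 4-fold higher in fetal liver and 13 higher in bone marrow. Their median log2 difference was 0.13, against 0.26 for all genes. Of 182 genes of liver cells, 105 were higher in fetal liver and 12 in bone marrow, with a median of 2.68. Of 238 genes of mature white cells, 2 were higher in fetal liver and 182 in bone marrow, with a median of -4.01. The lists were chosen with earlier results of these arrays known, so the counts describe the samples and are no independent support. Of 834 differing genes with more than 1 probe seen, 749 had all probes on the same side, and 13 had a probe past 4-fold in the opposite direction, which is named below where it touches a gene described.

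**Figure D2:**
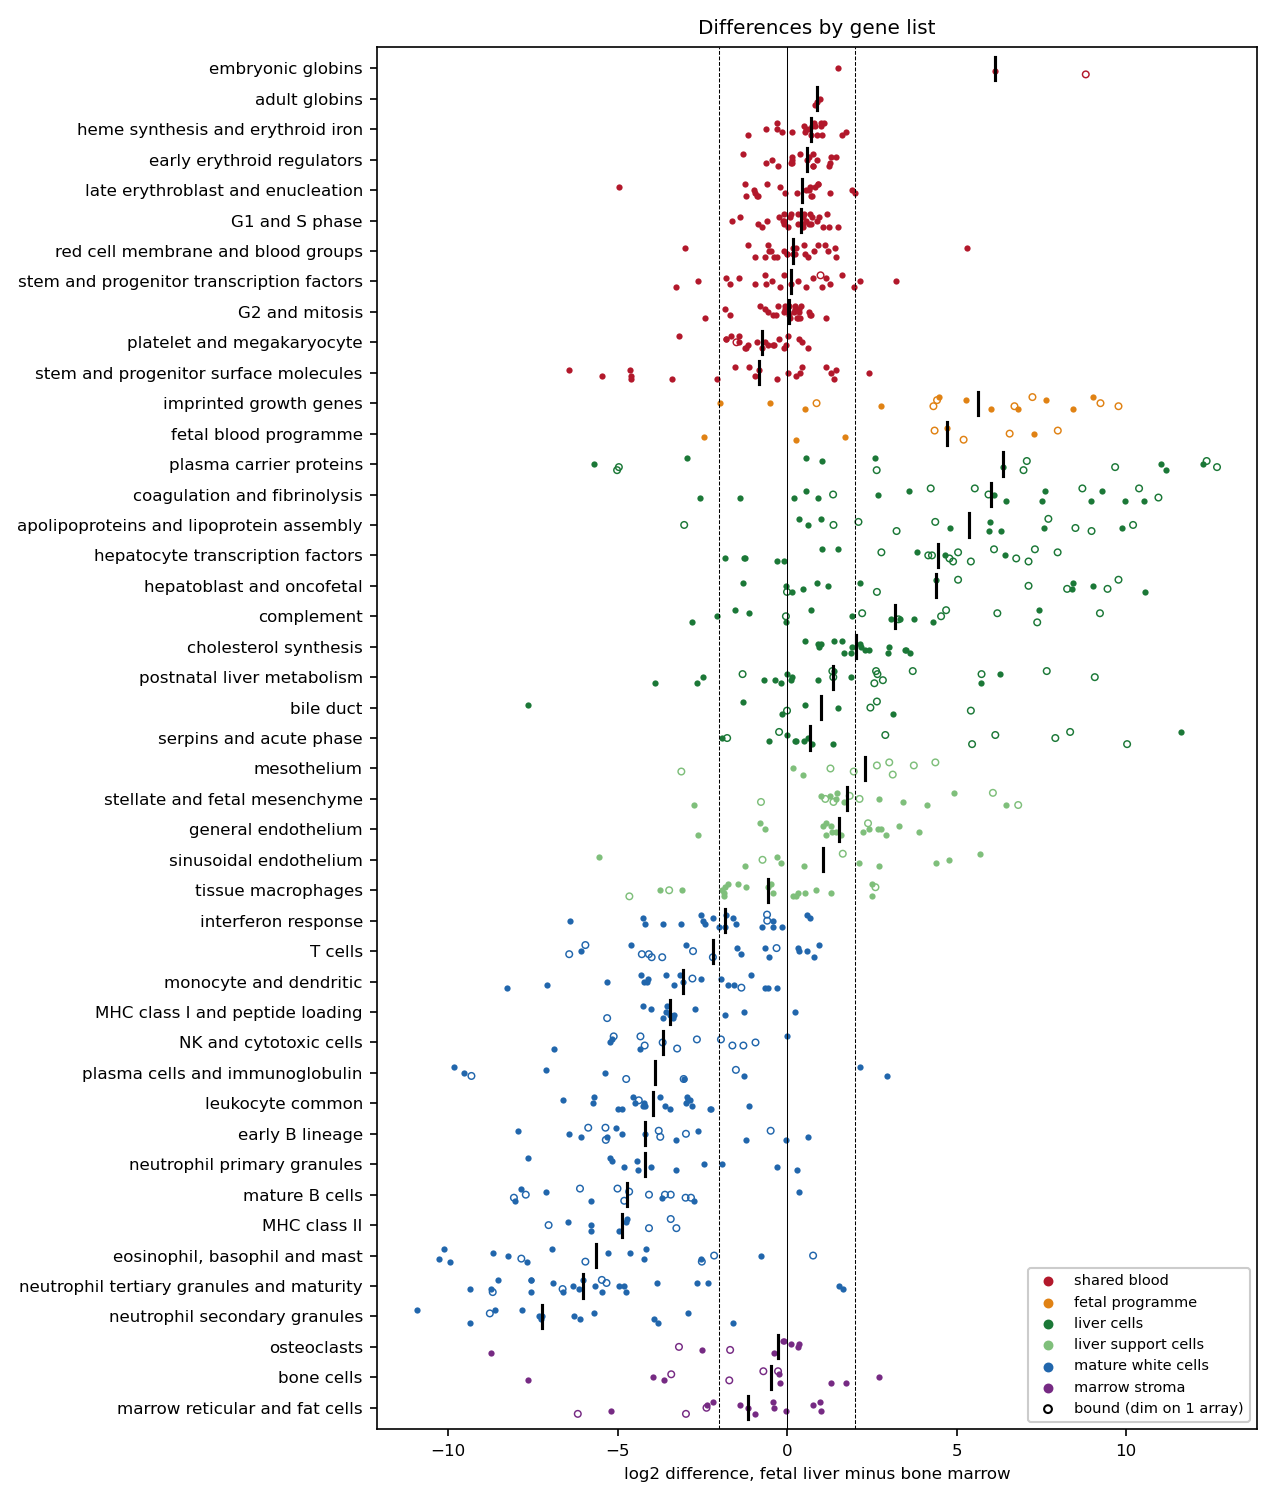
Log2 difference, fetal liver minus bone marrow, of each gene (point) in the lists named on the y axis, coloured by group of lists; filled points were measured on both arrays, open points are lower bounds, black bars are medians and dashed lines mark 4-fold. The red cell and cell cycle lists sit near 0, the embryonic globins (median 6.12) and imprinted genes (5.64) lie to the right, and the neutrophil secondary granule list lies farthest to the left (-7.23).

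The red cell programme was present in both organs at levels within a few-fold. The 19 early erythroid regulators, transcription factors and receptors that turn a progenitor into a red cell precursor, held no gene past 4-fold, and 14 lay within 2-fold. Gata1, the master regulator of the lineage, stood at a level of 8.39 in fetal liver and 4.95 in bone marrow, a 1.70-fold difference. Epor, the erythropoietin receptor, stood at 49.6 and 20.1, or 2.46-fold. Tal1, a partner of Gata1, stood at 66.7 and 27.7, a 2.40-fold difference. All 3 lay on the fetal liver side, as did 15 of the 19 regulators, but 10 of the 19 did so under median scaling and none under spike-in scaling.

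Heme synthesis and red cell structure followed the same pattern. Of 21 genes for heme synthesis and iron uptake none reached 4-fold, 14 lay within 2-fold, and the largest differences were those of the mitochondrial transporter Abcb6 (1.74 on the log2 scale) and of Cpox (levels 82.2 and 27.0, 3.05-fold), an enzyme late in the pathway. Alas2, the rate-limiting enzyme of heme synthesis in red cells, stood at 141 in fetal liver and 174 in bone marrow, within 1.24-fold. Of 26 genes of the red cell membrane and blood groups, 19 lay within 2-fold. Rhd, a blood group carrier, had levels of 76.0 and 75.5. Slc4a1, the anion exchanger band 3, had 357 in fetal liver and 188 in bone marrow. Under spike-in scaling all 21 heme and iron genes lay on the bone marrow side, 6 of them at least 4-fold. Of the 26 membrane and blood group genes 25 did, with 16 at least 4-fold higher in bone marrow.

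The adult globins were within 2-fold. The probe named Hbb-bt read 933 in fetal liver and 472 in bone marrow, Hba-a1 read 933 and 525, and Hba-a2 read 832 and 451. All 3 lay on the fetal liver side, but both alpha chains turned under quantile normalization (Hba-a1 to -0.14 and Hba-a2 to -0.04 on the log2 scale) and all 3 turned under spike-in scaling. Eraf, the stabilising protein of alpha-globin also called Ahsp, read 196 and 159. Globin copies are nearly identical in sequence, so a probe may read more than 1 of them, and the folds of single copies are uncertain. The signals of the 3 genes summed to 1.044e+06 in fetal liver and 1.294e+06 in bone marrow. The brightest gene spots of these arrays read 444000 and 483000, and none was flagged as saturated. The brightest spike-in probe differed by 0.51 on the log2 scale between the unscaled arrays, the others by 0.99 to 1.39. Whether folds shrink at such signals was not tested.

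The embryonic globins set the organs apart. Hba-x, the embryonic zeta chain, stood at 12.0 in fetal liver and was not well above background in bone marrow or adult liver, so that fetal liver exceeded marrow at least 449-fold. Hbb-bh1 had levels of 53.2 and 0.765, a 69.6-fold difference. Hbb-y, the epsilon-type chain, read 117 in fetal liver and also 41.4 in bone marrow, 2.82-fold, with 0.275 in adult liver, and it turned to -0.81 on the log2 scale under spike-in scaling. The yolk sac makes the first red cells of the embryo, which carry these chains and circulate at this age.

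A few genes inside the red cell lists departed from their neighbours. Slc2a1, the glucose transporter GLUT1, stood at 118 in fetal liver and 2.99 in bone marrow, 39.5-fold, with 4.32 in adult liver. Car1, carbonic anhydrase 1, ran the other way with 0.744 and 23.1, or 31.1-fold higher in bone marrow. Car2, the second red cell carbonic anhydrase, was within 2-fold at 110 and 166. Aqp1, the water channel, read 11.6 in fetal liver and 93.4 in bone marrow, 8.05-fold. Each of Slc2a1, Car1 and Aqp1 rests on 1 probe.

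**Figure D3:**
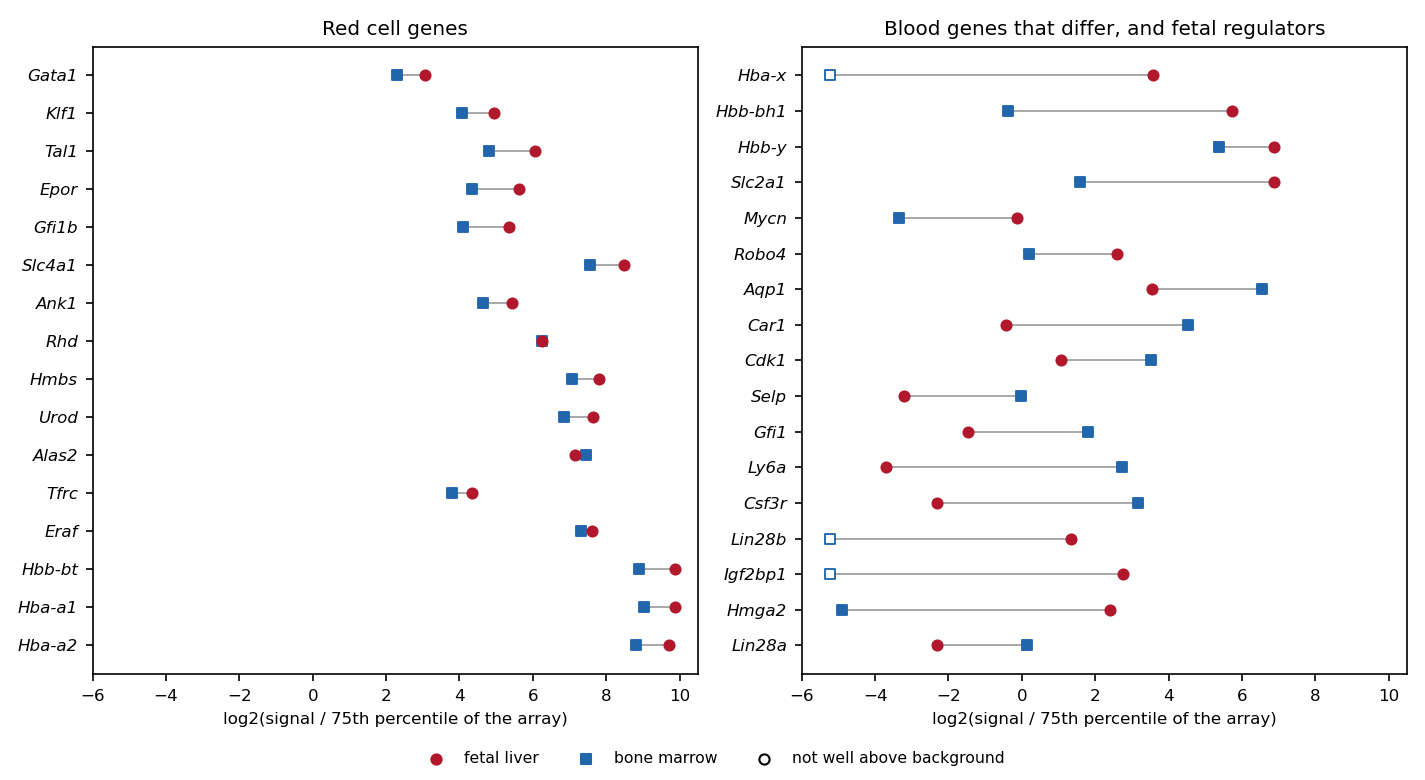
Levels (x axis, log2 of the signal over the array's 75th percentile) of red cell genes on the left and of blood genes and fetal regulators on the right, with fetal liver as circles and bone marrow as squares; open symbols were not well above background and sit at the array's floor. Pairs on the left lie within 2.46-fold, while Hba-x, Slc2a1, Igf2bp1 and Car1 on the right are spread over 31.1-fold or more.

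Cell division genes were close as well under the main setting. Of 30 genes for entry into the cell cycle and DNA synthesis, 24 lay within 2-fold and none reached 4-fold. Mcm6, a subunit of the replicative helicase, had levels of 157 in fetal liver and 114 in bone marrow, against 3.14 in adult liver. Of 30 genes for mitosis, 26 lay within 2-fold. Mki67, the usual marker of dividing cells, read 161 and 132, with 0.259 in adult liver. Cdk1, the mitotic kinase, was the exception at 4-fold, with 2.11 in fetal liver and 11.4 in bone marrow on the probe used. Its other probe gave 0.39 on the log2 scale, and the mean of both, -1.02, did not reach 4-fold. Under median scaling 25 of the 30 mitosis genes lay on the bone marrow side. Under spike-in scaling all 30 genes of each list did, with 13 of the first list and 21 of the mitosis list at least 4-fold higher there.

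Platelet genes leaned to the bone marrow, with 19 of 23 on its side and a median of -0.74 on the log2 scale. Of the 23, 13 lay within 2-fold (56.5%, against 55.1% of all genes compared). At least 4-fold higher in bone marrow was 1 (4.35%, against 8.33% of all genes), but 20 were under spike-in scaling. Pf4, platelet factor 4, had 99.5 in fetal liver and 64.5 in bone marrow. Itga2b, the alpha chain of the fibrinogen receptor, had 1.44 and 3.80. Selp, the adhesion molecule P-selectin, was the member past 4-fold, with 0.108 in fetal liver and 0.978 in bone marrow.

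Stem and progenitor genes were taken by class. The 23 transcription factors had a median of 0.10 on the log2 scale, with 10 within 2-fold (43.5%, against 55.1% of all genes compared). In each direction 2 of them passed 4-fold (8.70%), close to the 9.29% and 8.33% of all genes. Mycn, a growth-promoting factor, was 9.26-fold higher in fetal liver at 0.917 and 0.0991, and Hlf, a stem cell factor, was 4.47-fold higher at 1.49 and 0.335, while under spike-in scaling Hlf lay at -0.15. Gfi1, which drives granulocyte fate, was 9.78-fold higher in bone marrow at 0.359 and 3.51, and Erg was 6.15-fold higher there at 0.499 and 3.06.

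Among 21 surface molecules, 7 were at least 4-fold higher in bone marrow. Kit, the stem cell factor receptor, was alike at 1.55 and 1.51, and Cd34 was close at 12.5 and 9.68. Ly6a, which encodes Sca-1, an antigen used to sort adult stem cells, stood at 0.0773 in fetal liver and 6.61 in bone marrow, 85.6-fold. Csf3r, the granulocyte colony-stimulating factor receptor, stood at 0.201 and 8.91, 44.4-fold. Cd48 (24.7-fold), Cd33 (24.4-fold) and Thy1 (24.3-fold) followed. Several of these molecules are also carried by mature white cells, so that their level in whole tissue does not count stem cells. Robo4, a guidance receptor of stem cells and endothelium, was the surface molecule at least 4-fold higher in fetal liver, at 6.10 and 1.15.

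Fetal growth regulators were among the clearest marks of the fetal liver. Lin28b, an RNA-binding protein that holds fetal blood formation in its early mode, had a level of 2.53 in fetal liver and was not well above background in bone marrow or adult liver, at least 94.6-fold. Hmga2, a chromatin protein, read 5.25 and 0.0336, 156-fold, on the probe used, while its 3 probes spanned 1.84 to 7.29 on the log2 scale. Igf2bp1 read 6.77 in fetal liver and was at least 253-fold higher there, Igf2bp3 at least 36.9-fold, and Igf2bp2 26.3-fold. Sox17, a factor of fetal stem cells that endothelium also makes, was at least 20.4-fold higher. The paralogue Lin28a went against this group, with 0.202 in fetal liver and 1.11 in bone marrow, 5.48-fold higher in bone marrow on 1 probe.

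Imprinted genes, expressed from 1 parental copy and known as a network for fetal growth, were higher in fetal liver in 14 of 18 cases, and none was at least 4-fold higher in bone marrow. Igf2, a fetal growth factor, had 145 in fetal liver, 0.419 in bone marrow and 0.0785 in adult liver. Its neighbour H19, a noncoding RNA, had 50.1, 0.0955 and 0.167. Mest, a hydrolase of the same network, had 48.8, 0.245 and 0.699. On chromosome 12 the neighbours Dlk1 (at least 876-fold), Meg3 (606-fold), Mirg (151-fold), Rian (104-fold) and Dio3 (5.01-fold) were all higher in fetal liver as bounds, between positions 110698428 and 111519176 of build mm9. Cdkn1c, a brake on the cell cycle, was 113-fold higher. Gnas leaned to bone marrow at 2.09 and 8.21, 3.92-fold, on the probe used, but its 6 probes spanned -2.10 to 3.80 on the log2 scale.

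The labelled fetal liver held the defining genes of hepatoblasts. Afp, the main plasma protein of the fetus, had 544 in fetal liver, 0.365 in bone marrow and 0.335 in adult liver, a 1492-fold difference between fetal liver and marrow. Gpc3, an oncofetal surface proteoglycan, read 18.7 in fetal liver, at least 700-fold above marrow. Krt8, an epithelial keratin, read 19.8, 0.0590 and 77.0 in fetal liver, bone marrow and adult liver. In all, 12 of 19 hepatoblast and oncofetal genes were higher in fetal liver and none in bone marrow. Cd24a, used to mark hepatoblasts but also made by red cell precursors, was the same in both at 145 and 149.

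Plasma carrier proteins held the largest differences of the comparison. Alb, albumin, had 176 in fetal liver and 990 in adult liver and was not well above background in bone marrow, at least 6563-fold. Rbp4, the carrier of retinol, read 284, 0.0577 and 767 in fetal liver, bone marrow and adult liver, 4925-fold. Serpina6, the carrier of corticosteroids, read 142 in fetal liver and 41.5 in adult liver and was at least 5306-fold higher than in bone marrow. Of 17 carriers compared, 11 lay past 4-fold towards fetal liver.

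The other 4 carriers past 4-fold were higher in bone marrow. Hp, haptoglobin, which binds free hemoglobin and is also stored in neutrophil granules, had 3.05 in fetal liver, 159 in bone marrow and 622 in adult liver. Orm1 and Orm2, acid glycoproteins of the acute phase response, were not well above background in fetal liver and at least 32.3-fold and 31.2-fold higher in bone marrow. Cp, the copper carrier ceruloplasmin, read 0.139 and 1.07, against 64.5 in adult liver. These 4 genes were thus lower in fetal liver than in both other samples.

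Clotting factors, apolipoproteins and complement proteins are further products that hepatocytes release into the blood. Of 22 clotting genes, 16 lay past 4-fold towards fetal liver, among them Fgg and Fgb, chains of fibrinogen (at least 1981-fold and 1464-fold), and F2, prothrombin, at 31.0, 0.0617 and 375 in fetal liver, bone marrow and adult liver. F5, which platelets also hold, was higher in bone marrow at 0.171 and 1.01. Of 18 apolipoprotein genes, 13 were higher in fetal liver, led by Apoa2 (at least 1179-fold) and Apom (941-fold), and 1, the phospholipid transfer protein Pltp, was at least 8.20-fold higher in bone marrow. Apoe, made by macrophages as well, was close at 99.3 and 78.3. Of 20 complement genes, 12 were higher in fetal liver and 2 in bone marrow, among them C4b at 0.113 and 0.786. C3, the central component, read 67.1 in fetal liver, 147 in bone marrow and 782 in adult liver.

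The acute phase and serpin list split. Serpina1d, an alpha-1-antitrypsin, had 208 in fetal liver and 0.0660 in bone marrow, 3144-fold, and Itih3 was at least 1044-fold higher. Serpina3k read 0.0532 and 0.0323 and Saa1 read 1.19 and 1.20, both within 2-fold, while adult liver had 267 and 28.9. In all, 7 of 18 genes were higher in fetal liver, 7 lay within 2-fold and none was at least 4-fold higher in bone marrow.

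Of 22 hepatocyte transcription factors, 15 were higher in fetal liver and none in bone marrow. Of the 22, 12 were bounds. Of the 10 measured in both tissues 3 were higher in fetal liver, 5 lay on each side, and the median was 0.46 on the log2 scale, against 4.46 with bounds. Foxa2, a pioneer factor of the gut tube, had 4.24 in fetal liver and 16.2 in adult liver and was at least 159-fold above bone marrow. Hnf4a, a central factor of hepatocytes, had 0.102 in fetal liver, 0.108 in bone marrow and 0.449 in adult liver on the probe used. Its 3 probes spanned -0.09 to 8.05 on the log2 scale and their mean gave 3.94, so its place in the comparison depends on the probe. Cebpa, shared by hepatocytes and myeloid cells, was close at 1.97 and 2.40, and Cebpb was 3.57-fold higher in bone marrow.

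Enzymes of postnatal metabolism were partly on. Of 25 compared, 10 were higher in fetal liver, 3 in bone marrow and 7 lay within 2-fold, while with normexp or the deposited values 6 were higher in fetal liver. Gys2, the liver's glycogen synthase, had 14.4 in fetal liver and 49.0 in adult liver and was at least 539-fold above bone marrow. G6pc, the last step of glucose release, had 0.127 in fetal liver, 0.163 in bone marrow and 86.2 in adult liver. Pygl, liver glycogen phosphorylase, which white cells also use, was 6.26-fold higher in bone marrow on the probe used, while its other probe gave 1.33 on the log2 scale in favour of fetal liver. Another 8 genes of the list, among them Cps1, Cyp2e1 and Cyp7a1, were not well above background in either tissue.

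All 18 genes of cholesterol synthesis and its control lay on the fetal liver side, 9 of them at least 4-fold, with a median of 2.03 on the log2 scale. Hmgcs1, an early enzyme, had 36.7 in fetal liver, 3.24 in bone marrow and 56.1 in adult liver. Under spike-in scaling the median turned to -0.28 and 6 of the 18 lay on the fetal liver side.

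**Figure D4:**
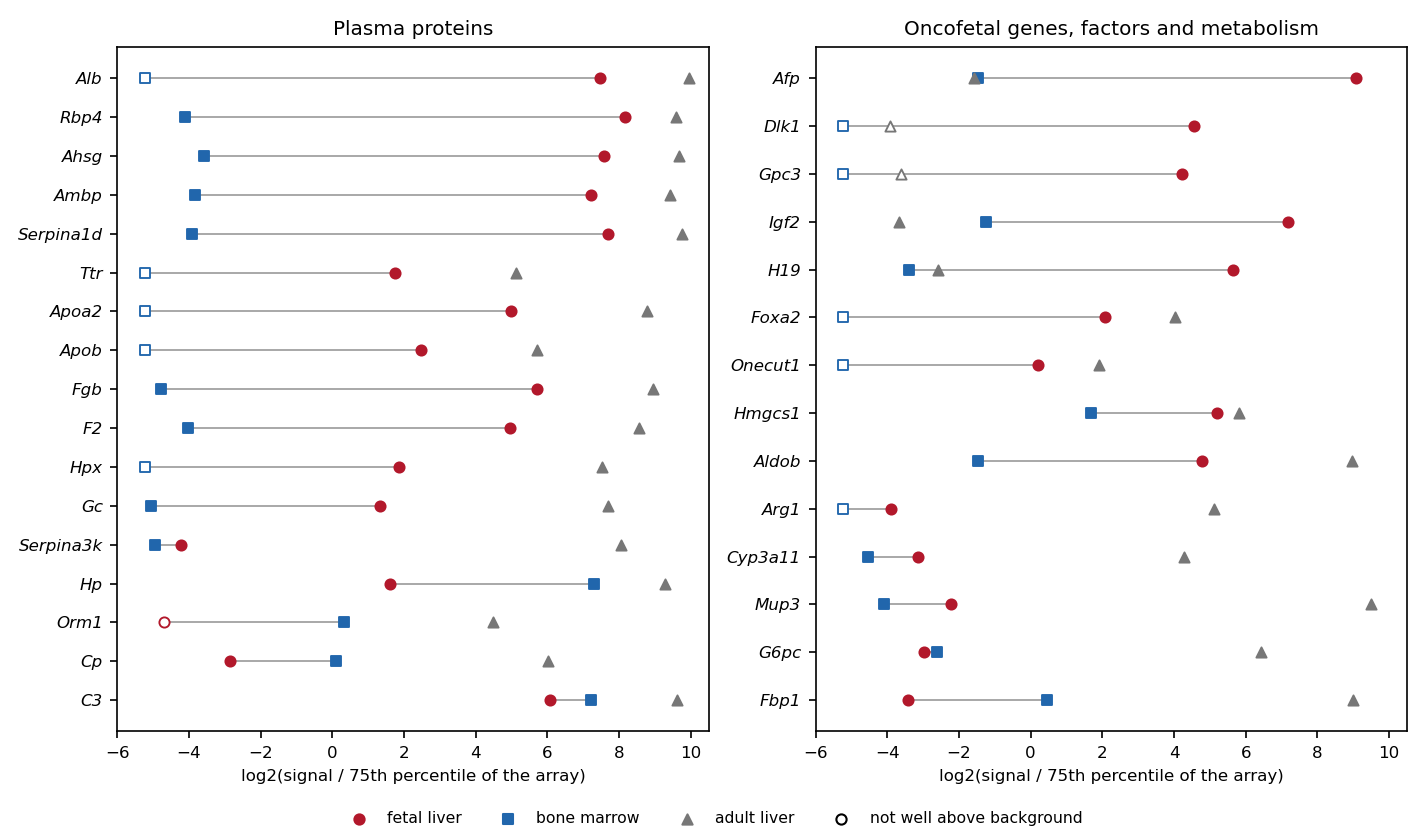
Levels (x axis, log2 of the signal over the array's 75th percentile) of plasma protein genes on the left and of oncofetal genes, liver transcription factors and enzymes on the right in fetal liver (circles), bone marrow (squares) and adult liver (triangles); open symbols were not well above background. Afp, Dlk1, Gpc3, Igf2 and H19 are high in fetal liver alone of the 3 samples, Hp, Orm1, Cp, C3 and Fbp1 are lower in fetal liver than in bone marrow, and Serpina3k, Arg1 and G6pc are high in adult liver alone.

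Cells that support the liver also differed. Of 12 sinusoidal endothelium genes, 5 were higher in fetal liver: Oit3 (levels 3.57 and 0.0696), Lyve1 (4.16 and 0.151), Gpr182 (11.5 and 0.549) and the scavenger receptors Stab1 (6.36 and 0.966) and Stab2 (2.87 and 0.662). Fcgr2b, an inhibitory antibody receptor that B cells and myeloid cells share with this endothelium, was 46.7-fold higher in bone marrow. Of 18 general endothelium genes, 15 lay on the fetal liver side and 8 reached 4-fold, among them Kdr, the receptor for vascular growth factor, at 4.24 and 0.427, while 5 reached it under median scaling and none under spike-in scaling, where 7 lay on the fetal liver side.

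Stellate cell and fetal mesenchyme genes were higher in fetal liver in 8 of 18 cases. Lhx2, a factor of stellate cells, was at least 113-fold higher at 3.62, Colec11 was 87.3-fold higher and Ptn, a growth factor for stem cells, was at least 67.2-fold higher. Col1a1, a collagen of bone as well as mesenchyme, had 26.4 in fetal liver and 3.99 in bone marrow. Of the mesothelium list, which marks the covering of the liver, 5 of 10 were higher in fetal liver, led by Wt1 (at least 20.7-fold), and 1, the surface protein Cd200, was at least 8.69-fold higher in bone marrow. Of these 10 genes 8 were bounds, and with normexp or the deposited values 2 were higher in fetal liver. Acta2, a smooth muscle actin, was 6.68-fold higher in bone marrow on the probe used, but the mean of its probes gave 0.69 on the log2 scale towards fetal liver.

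Macrophage genes were higher in fetal liver in 3 of 23 cases and in bone marrow in 4, beside 9.29% and 8.33% of all genes compared. These counts changed with the setting. They were 3 and 9 under median scaling, 1 and 3 with normexp, and none and 16 under spike-in scaling. Marco, a scavenger receptor, had 32.3 in fetal liver and 5.75 in bone marrow. Timd4, a receptor for dying cells on resident macrophages, had 0.571 and 0.100, and Clec4f, a Kupffer cell lectin, read 0.163 in fetal liver, at least 6.09-fold above marrow. Cd163, a receptor for hemoglobin bound to haptoglobin, had 0.974 in bone marrow and was at least 25.1-fold higher there. Cd68 (0.390 and 5.21), Vsig4 (at least 11.1-fold) and C1qa (0.664 and 5.64) were higher in bone marrow as well. Vcam1, the adhesion molecule of macrophages that surround red cell precursors, was close at 9.48 and 12.6 on the probe used, while its other probe gave -3.52 on the log2 scale.

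White cell genes filled the other side. Of 22 genes common to leukocytes, 21 were at least 4-fold higher in bone marrow and all 22 lay on its side. Ptprc, the leukocyte antigen CD45, had 1.01 in fetal liver and 29.3 in bone marrow, 29.0-fold. Coro1a, an actin regulator of white cells, had 12.0 and 160, and Cd53, a membrane protein of leukocytes, had 0.101 and 9.77, 97.2-fold. Spi1, which encodes PU.1, was not well above background in fetal liver and at least 20.7-fold higher in bone marrow. Was, a further actin regulator, was the member short of 4-fold, at 7.44 and 16.1.

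Neutrophil genes were taken in lists by the stage at which a granule protein is made. Primary granule proteins are made first, at the promyelocyte stage, secondary granule proteins next, and tertiary granule and surface proteins last. The primary list had 9 of 12 genes higher in bone marrow, with a median fold of 18.4. The secondary list had 14 of 15, with a median of 151-fold, and the tertiary and maturity list 23 of 25, with a median of 64.9-fold. The lists share the arrays and were not tested against each other.

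Mpo, myeloperoxidase, stood at 50.6 in fetal liver and 280 in bone marrow, 5.52-fold, and was not well above background in adult liver. Its companions Ctsg (4.24 and 151, 35.6-fold), Prtn3 (0.401 and 11.2, 27.9-fold) and Elane (0.122 and 24.2, 199-fold) differed more. Among secondary granule genes, Ltf, lactoferrin, had 2.20 and 331, 151-fold, and Camp, a cathelicidin, had 3.28 and 256, 78.1-fold. Lcn2 was 657-fold and Ngp 391-fold higher in bone marrow. Chil3, a chitinase-like protein, had 0.131 and 251, 1916-fold, which was the largest measured difference of any gene in this direction.

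Late neutrophil genes behaved unevenly. S100a8 had 6.82 in fetal liver and 346 in bone marrow, 50.7-fold, while S100a9, its binding partner, had 82.95 and 422, 5.08-fold. Mmp9, a gelatinase of tertiary granules, was 426-fold, Retnlg 656-fold and the chemokine receptor Cxcr2 70.9-fold higher in bone marrow. Stfa1 and Stfa3, cysteine protease inhibitors of the stefin A family, lay on the fetal liver side at 20.9 and 6.62 and at 6.82 and 2.38, under 4-fold, and turned to the bone marrow side under spike-in scaling. Stefin A copies are similar in sequence, so these probes may read several of them.

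The list for eosinophils, basophils and mast cells had 18 genes, and 16 were higher in bone marrow, with a median fold of 49.2. Ear1, Ear6 and Ear10, ribonucleases of eosinophil granules with similar sequences, were 1103-fold, 1229-fold and 978-fold higher. Prg2, the major basic protein, had 0.623 and 252, and Epx, eosinophil peroxidase, had 0.101 and 30.1. Mcpt8, a basophil protease, was at least 229-fold higher in bone marrow. Cma1 and Tpsb2, proteases of mature tissue mast cells, did not reach 4-fold.

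Monocyte and dendritic cell genes were higher in bone marrow in 13 of 21 cases, and all 21 lay on its side. Ly6c2, a marker of inflammatory monocytes, had 1.35 in fetal liver and 185 in bone marrow, 137-fold. Ccr2, their chemokine receptor, had 0.279 and 4.86. Irf8, a factor of the monocyte and dendritic lineage, had 2.82 and 23.7, 8.42-fold. Csf1r, the receptor for macrophage growth factor, was 3.33-fold apart at 2.09 and 6.97.

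B lymphocyte genes were mostly higher in bone marrow. Of 19 early B lineage genes, 15 were higher in bone marrow. Rag1, which cuts antigen receptor genes, and Igll1, a part of the surrogate light chain, were not well above background in fetal liver and were at least 41.0-fold and 58.3-fold higher in bone marrow. Vpreb1 had 0.252 and 21.7, and Vpreb3 had 0.155 and 38.3. Tcf3, a factor expressed well beyond B cells, was close at 11.01 and 7.17.

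Later B cell genes followed, with 17 of 18 higher in bone marrow, or 11 of 18 with normexp background correction. Ms4a1, the antigen CD20, had 0.0403 and 9.34, and Ighm, the heavy chain of IgM, had 0.964 and 133. Antibody secretion genes were among the largest differences: Igha stood at 0.154 and 114, 738-fold, and Jchain, the joining chain, was at least 635-fold higher. Among the 12 genes of the plasma cell list, Fkbp11 (6.43 and 0.842) and Sdc1 (2.56 and 0.573) were higher in fetal liver, and both serve secretory or epithelial cells as well.

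T cell and natural killer cell genes gave mixed results. Of 21 T cell genes, 11 were higher in bone marrow and 7 lay within 2-fold, while with normexp 7 of 20 were higher in bone marrow. Cd3d, a part of the T cell receptor complex, had 2.39 in bone marrow and was at least 61.8-fold higher there, and Cd3g was at least 16.9-fold higher. Cd3e, which belongs to the same complex, was within 2-fold at 0.237 and 0.343, low in both. Of 15 natural killer and cytotoxic genes, 10 were higher in bone marrow. Ccl5, a chemokine of these cells, had 0.163 and 19.02, and Gzma, granzyme A, was at least 12.7-fold higher.

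**Figure D5:**
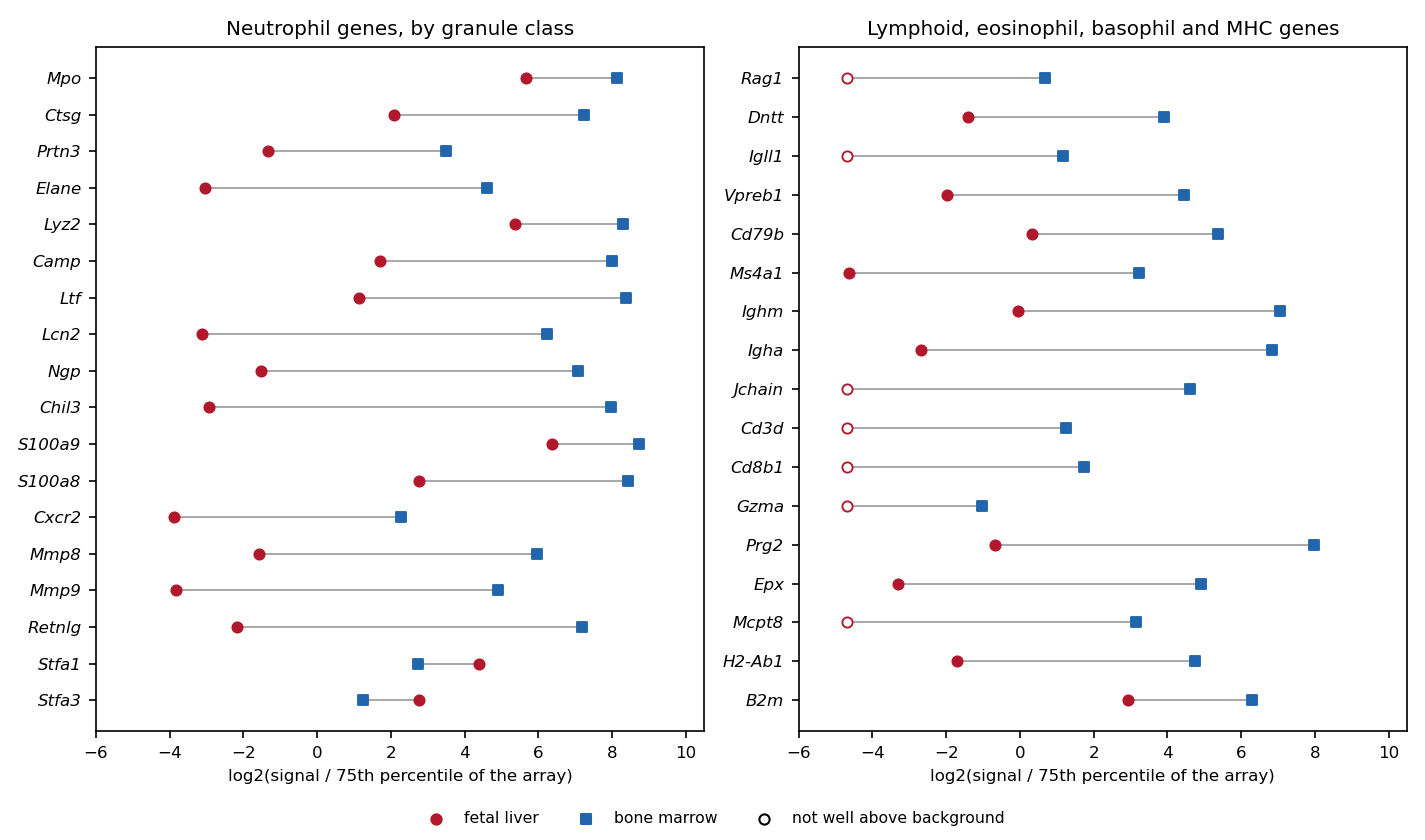
Levels (x axis, log2 of the signal over the array's 75th percentile) of neutrophil genes on the left and of lymphoid, eosinophil, basophil and antigen presentation genes on the right in fetal liver (circles) and bone marrow (squares); open circles were not well above background and sit at the array's floor. All genes shown except Stfa1 and Stfa3 are higher in bone marrow, with Mpo, S100a9 and Lyz2 apart by 5.08-fold to 7.66-fold and Chil3 by 1916-fold.

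Antigen presentation separated the organs as sharply. All 10 genes of MHC class II compared were higher in bone marrow, with a median fold of 29.0, among them H2-Ab1 at 0.305 and 27.1. Cd74, the invariant chain, had 0.460 and 25.3, and the regulator Ciita was at least 16.8-fold higher. MHC class I, which nearly all adult cells carry, was higher in bone marrow in 10 of 13 genes. B2m, its light chain, had 7.65 in fetal liver, 78.9 in bone marrow and 127 in adult liver. H2-K1 had 16.2, 107 and 333, so that fetal liver was lower than both adult tissues. Psmb8 and Psmb9, subunits of the immunoproteasome, were 16.3-fold and 18.9-fold higher in bone marrow, but Psmb10, a further such subunit, was close at 25.8 and 21.9.

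Interferon-induced genes leaned the same way, with 10 of 22 higher in bone marrow and none in fetal liver. Rsad2, an antiviral enzyme, had 0.336 and 28.4, 84.6-fold, and Isg15, a ubiquitin-like protein, had 0.879 and 11.2. Mx2 and Stat2 were within 2-fold, with Mx2 at 0.189 and 0.119.

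Marrow stroma was visible in part. Adipoq, the hormone of fat cells, had 2.80 in bone marrow and was at least 72.2-fold higher there. Ebf3, a factor of the reticular cells that hold stem cells, had 0.0460 and 1.67. Cxcl12, the chemokine that retains stem cells, had 8.29 and 38.03, with 43.2 in adult liver. Bglap, osteocalcin of bone-forming cells, had 0.0602 and 0.751. In all, 13 of 37 stroma genes were higher in bone marrow and 1, Col1a1, in fetal liver, while with normexp background correction 7 of 35 were higher in bone marrow. The 13 include Mmp9, listed for osteoclasts but also a neutrophil gene.

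Niche signals gave no common direction. Of 19 compared, 4 were higher in fetal liver, among them Igf2, Ptn and Dll4, and 3 in bone marrow (Cxcl12, Il34 and Spp1). Spp1, osteopontin, had 0.0699 and 13.9, 198-fold. Kitl, the ligand of Kit, was within 2-fold at 0.819 and 0.414, as was Thpo, which drives platelet production, at 1.27 and 1.95 on the probe used, but the other probe of Thpo gave 8.14 on the log2 scale.

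Homing molecules were higher in bone marrow in 12 of 20 cases. Cxcr4, the receptor for Cxcl12, had 0.167 and 4.71, and Itgam, an integrin of myeloid cells, had 0.0483 and 3.85. The integrins Itga4 (3.44 and 2.85) and Itgb1 (3.35 and 1.54), by contrast, were on the fetal liver side without reaching 4-fold, and both turned under spike-in scaling, Itga4 also under median scaling.

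Lists of neighbouring tissues, which dissection could carry along, held 27 genes that could be compared, while 17 more gave no fold. Of the 27, 3 were higher in fetal liver (11.1%) and 2 in bone marrow (7.41%). Of all genes compared, 9.29% and 8.33% were. Among 9 skeletal muscle genes, Myh4, a fast myosin, was at least 29.7-fold higher in bone marrow at 1.15, while Acta1 had 0.180 and 0.244 and Ckm was not well above background in fetal liver and 0.0619 in bone marrow. In the pancreas and gut list, Cela1, an elastase, was 15.4-fold higher in bone marrow, and Vil1 and Cpa1 were higher in fetal liver. None of the 4 cartilage genes and none of the 4 nervous tissue genes compared reached 4-fold, although Mbp, a myelin protein gene in the latter list, was well above background in both at 8.14 and 18.8.

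Markers of sex chromosomes differed between the samples. Xist, the noncoding RNA of the inactive X chromosome, had 31.3 in fetal liver and was not well above background in bone marrow or adult liver. The Y-linked genes Ddx3y and Eif2s3y stood lowest in fetal liver, Ddx3y at 0.279 against 1.39 in bone marrow and 2.99 in adult liver, Eif2s3y at 0.447 against 3.18 and 3.51. Both kinds of gene were thus detected in fetal liver, and their part in other differences was not tested. Of 479 genes on the X chromosome compared, 63 exceeded 4-fold towards fetal liver, which is 13.2%, and 37 towards bone marrow, which is 7.72%, beside 9.29% and 8.33% of all genes. Chromosome 3 had 11.9% and chromosome 15 had 11.6% towards fetal liver.

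Early response genes also differed without a common direction. Fos, a factor induced within minutes of stimulation, had 0.0561 in fetal liver and 3.36 in bone marrow, 60.0-fold, and Junb and Nr4a1 were 4.27-fold and 6.04-fold higher in bone marrow. Egr1, induced by the same kind of stimulus, was 7.46-fold higher in fetal liver at 2.69 and 0.360.

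The promoter motifs shown at the start were counted over the genes at each end of the comparison, on both strands of the 250 bases before the first start listed for a gene. Promoters were matched by symbol for 1052 of the genes higher in fetal liver and 946 of those higher in bone marrow. The HNF1 letters stood in 2.28% of promoters of genes higher in fetal liver, 0.634% of those higher in bone marrow, 0.293% of those within 2-fold and 0.781% of all 27025 promoters. The PU.1 letters stood in 1.14%, 5.92%, 2.11% and 2.44% in the same order. The C/EBP letters stood in 3.33%, 3.91%, 2.15% and 2.61%, close at both ends. Among promoters of all genes compared, the shares were 0.558% for HNF1, 2.39% for PU.1 and 2.34% for C/EBP.

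Of 6 further motifs counted, some differed in share between the ends and some did not. CAAAGTCCA is a form of the site of the hepatocyte factor HNF4. It stood in 0.570% of promoters of genes higher in fetal liver (6 of 1052) and 0.951% of those higher in bone marrow (9 of 946). Of all promoters, 0.381% held it. This order is opposite to that of the HNF1 letters (24 and 6 promoters) but rests on few promoters. TGTGGTT, a form of the RUNX site, stood in 2.76% of promoters of genes higher in fetal liver and 6.13% of those higher in bone marrow, against 4.46% of all promoters. GAAANTGAA, a form of the interferon response element, stood in 0.665% and 3.28%, against 1.74%. AGATAAG, a form of the GATA site of red cell factors, stood in 2.19% and 2.11%, against 2.78% of all promoters. CCACACCC, a form of the CACCC box, stood in 3.71% and 4.97%, against 3.19%. TTTCCCGC, a form of the E2F site of cell cycle genes, stood in 0.951% and 0.423%, against 0.929%. Both E2F shares lay below the 1.93% of genes within 2-fold. Over the 11646 promoters of genes compared, the shares were 0.378% for HNF4, 3.39% for RUNX and 1.51% for the interferon element. They were 1.82% for GATA, 3.43% for CACCC and 1.59% for E2F. The base makeup differed too: the median G and C content was 58.8% ahead of genes higher in fetal liver, 54.4% ahead of those higher in bone marrow and 59.2% ahead of those within 2-fold. Its part in the motif shares was not tested, and a match of letters is no sign that a factor binds there.

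Beyond the lists lay 1200 of the genes higher in fetal liver and 991 of those higher in bone marrow. Some of the largest, chosen after their values were seen, are named here. The fetal liver side included Fabp1, the liver's fatty acid binding protein (30.8 and 0.0345, 893-fold), Igfbp1, a carrier of growth factors (at least 1440-fold), Rgn (at least 996-fold), the glucagon receptor Gcgr (249-fold) and Asb4 (199-fold). Bex2, a small X-linked protein, had 35.9 in fetal liver and was not well above background in either other sample, at least 1344-fold. The bone marrow side included Chil4 (at least 1876-fold), Ear3 (at least 799-fold), Ly6d, an antigen of lymphoid progenitors (0.0419 and 24.2, 577-fold), Lrg1 (0.126 and 45.6, 363-fold, with 114 in adult liver) and Ifitm6 (238-fold).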

How the data were processed

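Total RNA of 1 fetal liver, 1 bone marrow and 1 adult liver sample was labelled with Cy3 and hybridised to 3 arrays on 1 slide, per the labels. The deposited scanner files hold intensity values that Agilent Feature Extraction 10.5.1.1 had corrected for background, per the file headers. The deposited table's normalized values are a ratio: in each sample they equal the scanner's error of the processed signal divided by a constant, within 1% on 45018 of 45018 spots, and they served as an alternative alone. Another 6 value columns were not used.

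Here control spots and spots with outlier flags (71 to 80 per array) were left out, spots of a probe were averaged, and each array was scaled to its 75th percentile. Probes were named by accession (24983), current symbol (5966), older symbol (1759) or the file's name (20) through RefSeq tables, and 8446 stayed unnamed. A gene took the probe well above background on most arrays, then the brightest. A lower bound used the higher of the dim probe's signal and the array's lowest signal well above background. No sample is replicated, so no test was run, and scanner error and spot spread cover measurement alone. Near-identical genes can share a probe.

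The lists (940 genes, 910 named on the array) and the comparison were chosen with earlier results of these data known. For each list, the rule covered up to 3 members with the largest difference in each direction and members whose textbook role defines the list. Over all genes it covered the 15 largest measured differences and 5 largest bounds in each direction. Not every gene it covered is described in the text: Ahsg, Ambp, Cd177 and Il1b are among those left out. Genes outside the rule, motifs, families and runs of neighbours were chosen after values were seen. Alternatives were median, quantile and spike-in scaling, a percentile over probes detected on both arrays, normexp (offset 50), genes detected on both arrays, the mean of probes, the file's gene names and the deposited table. Python 3.11.15, numpy 2.4.6, pandas 2.3.3, R 4.3.3 and limma 3.58.1 (normexp) were used, and the steps were tested on simulated data.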

Additional observations from a re-analysis of the deposited data

How the results depend on the processing

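The number of genes at least 4-fold higher in fetal liver was 1365, against 862 with normexp, 319 with spike-in scaling and 883 among genes well above background on both arrays. The number higher in bone marrow was 1224, against 7712 with spike-in scaling. With the file's own gene names the counts were 2004 and 1447. The shared blood median was 0.13 on the log2 scale and -2.17 with spike-in scaling. The liver cell median was 2.68, against 0.55 with spike-in scaling and 1.37 among genes well above background on both arrays. The mature white cell median was -4.01, against -3.13 with normexp and -6.31 with spike-in scaling. The cholesterol synthesis median turned to -0.28 with spike-in scaling, and the gut and pancreas median to -1.06 among genes well above background on both arrays, where fewer genes remain. Spike-in scaling shifts every gene by the same amount, from 7 control probes that differed by 0.51 to 1.39 between the unscaled arrays. Turning was checked for 445 genes past 4-fold that stood in a list or among the largest differences, and not for the others. Of these 445, spike-in scaling turned 8, the mean of probes turned Acta2, and no other scaling or background setting turned any. Without bounds fewer genes are compared, and in some lists the share higher in fetal liver fell as well. It went from 15 of 22 to 3 of 10 for hepatocyte transcription factors and from 7 of 18 to 1 of 10 for serpins and acute phase. In the cholesterol synthesis list, which holds no bounds, it stayed at 9 of 18, and in the clotting list it went from 16 of 22 to 10 of 15. The cause of these and the other shifts was not tested. No paired analysis was possible because each tissue has 1 array, and leaving out a replicate could not be run. Signals near background limit 1756 genes to a bound.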

Other observations

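Genes that lie side by side differed together at several places, given here by mm9 positions and chosen after the values were seen. On chromosome 19, between 11122349 and 11742222, 13 successive compared genes were all at least 4-fold higher in bone marrow. Most of them belong to the Ms4a family of membrane proteins, of which 12 of 17 named genes were compared. Near-identical copies cannot be told apart where they share a probe. On chromosome 17, between 34274300 and 34452511, 11 successive compared genes of the MHC class II region were all higher in bone marrow. On chromosome 5, between 90901598 and 91032444, Alb, Afp, Afm and Rassf6 were all higher in fetal liver. On chromosome 12, between 104884880 and 105137322, the same held for Serpina6, Serpina1b, Serpina1d and Serpina1c.

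Families of housekeeping genes are set beside all genes compared, of which 55.1% lay within 2-fold, with a median of 0.26 on the log2 scale. Of 83 cytosolic ribosomal protein genes 67 lay within 2-fold, with a median of 0.72, and of 78 mitochondrial ribosomal protein genes 52 did, with a median of 0.77. Of 36 subunits of respiratory complex I, 30 lay within 2-fold, and of 39 proteasome genes 25 did. Cell surface families of white cells differed more: 18 of 26 killer cell lectin receptor genes were higher in bone marrow and none in fetal liver. Collagens ran the other way, with 14 of 34 higher in fetal liver and 2 in bone marrow. Solute carriers, which move nutrients and ions across membranes, held 48 of 275 higher in fetal liver and 18 in bone marrow.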
